A study of Drosophila melanogaster with 6 samples.

Results

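The methionine and folate cycles share out single carbon units between amino acids, nucleotides and methylation reactions. Glycine N-methyltransferase, encoded by Gnmt, uses S-adenosylmethionine (SAM) to methylate glycine, and so disposes of surplus methyl groups as sarcosine. The 6 genes described here were Gnmt and 5 enzymes of neighbouring steps, out of 11836 genes in the deposited table. They were taken by symbol: Gnmt, Sam-S, Sardh, Cbs, Nmdmc and pug. All 6 had a row, and all 6 passed a filter on low values, which kept genes averaging 1 FPKM or more. FPKM are fragments scaled by transcript length and library total, so levels can be compared between genes per length. The 6 were chosen with their mutant and control levels known, so for these 6 genes the levels and fold changes are a description and carry no test.

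Poly(A) RNA of Drosophila melanogaster adult heads was sequenced in strand-specific libraries. There were 3 libraries of homozygotes for Prp31_P18, a mutation of the splicing factor gene Prp31, and 3 libraries from control flies labelled w, with the genotype white. Flies of both genotypes were 2 days old, were kept at 25 °C under ordinary light, and gave 50 heads per pooled library. The series covers males and females, but the labels give neither the proportion of the sexes in a pool nor whether the mutants also carry white. The labels do not say what the P18 allele changes, so a single allele is compared with a single control stock here. Prp31 itself had 13.5, 14.2 and 13.6 FPKM in mutant libraries 1 to 3, against 13.8, 14.0 and 14.0 FPKM in control libraries 1 to 3, and this level checks no label.

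Column totals lay between 348791 and 402452 FPKM. Depth was given only as an average for the series, but the low values showed steps of whole reads, and 1 read was worth 0.953 to 1.08 times as much in the other libraries as in mutant replicate 1. The libraries were therefore close in depth. Defining markers of neurons, photoreceptors and glia were present in all libraries. Control replicate 3 stood apart: Pearson's r of its log2 values was 0.980 with control replicate 1 and 0.979 with control replicate 2, while that pair reached 0.996 (across genes, not independent replicates). With mutant libraries, r was 0.9706 to 0.9739 for control replicate 3 and 0.9482 to 0.9629 for control replicates 1 and 2. Pairs of mutant libraries had 0.9865 to 0.9916. By this measure control replicate 3 was the control closest to the mutants, and leaving it out removes that control. Counts of pathway calls are given with and without control replicate 3. Nothing says that the replicates came from separate cultures, so the p-values speak of the scatter among these libraries only, part of which may be technical.

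In the fly, Sam-S makes SAM from methionine, Gnmt consumes it, and sarcosine dehydrogenase (Sardh) oxidises the sarcosine back to glycine. The homocysteine left after methylation is either remethylated to methionine or committed to cysteine by cystathionine beta-synthase (Cbs). Folate carries the single carbons: pug encodes a trifunctional folate enzyme and Nmdmc a bifunctional, NAD-dependent dehydrogenase and cyclohydrolase of mitochondria. In flies Gnmt is known as an enzyme of the fat body, where the transcription factor FoxO has been described as an inducer of it.

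Gnmt was the member with by far the largest difference. Gnmt (FBgn0038074, 3R, 12674608 to 12676084, build BDGP6, plus strand) had 13.6, 34.5 and 37.0 FPKM in mutant libraries 1 to 3, against 0.448, 0.261 and 3.495 FPKM in control libraries 1 to 3. Every mutant library lay above every control library, and the lowest mutant value was 3.88 times the highest control value. Mutant heads averaged 28.4 ± 12.9 FPKM and control heads 1.40 ± 1.82 FPKM (SD, n = 3 each), a ratio of 20.2. The fold change on the scale of log2(FPKM + 1), where differences of weakly expressed genes appear smaller than they are, was 3.74 (SE 0.54, limma). It was the 8th largest increase among the 8465 genes kept by the filter. With a pseudocount of 0.1 it was 4.86.

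Neither group was uniform for Gnmt. Mutant replicate 1 had less than the other mutant libraries, with a highest to lowest ratio of 2.73 in mutants. Among controls that ratio was 13.4, because control replicate 3 had 9.86 times the mean of control replicates 1 and 2. Measured on the log2 scale, that gap within the controls was 1.73, the 24th largest of 8465 genes. Mutant heads had 80.0 times the mean of control replicates 1 and 2, and 8.12 times the level of control replicate 3. The fold change was 4.32 without control replicate 3, and between 3.40 and 4.19 without any other single library.

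**Figure D1:**
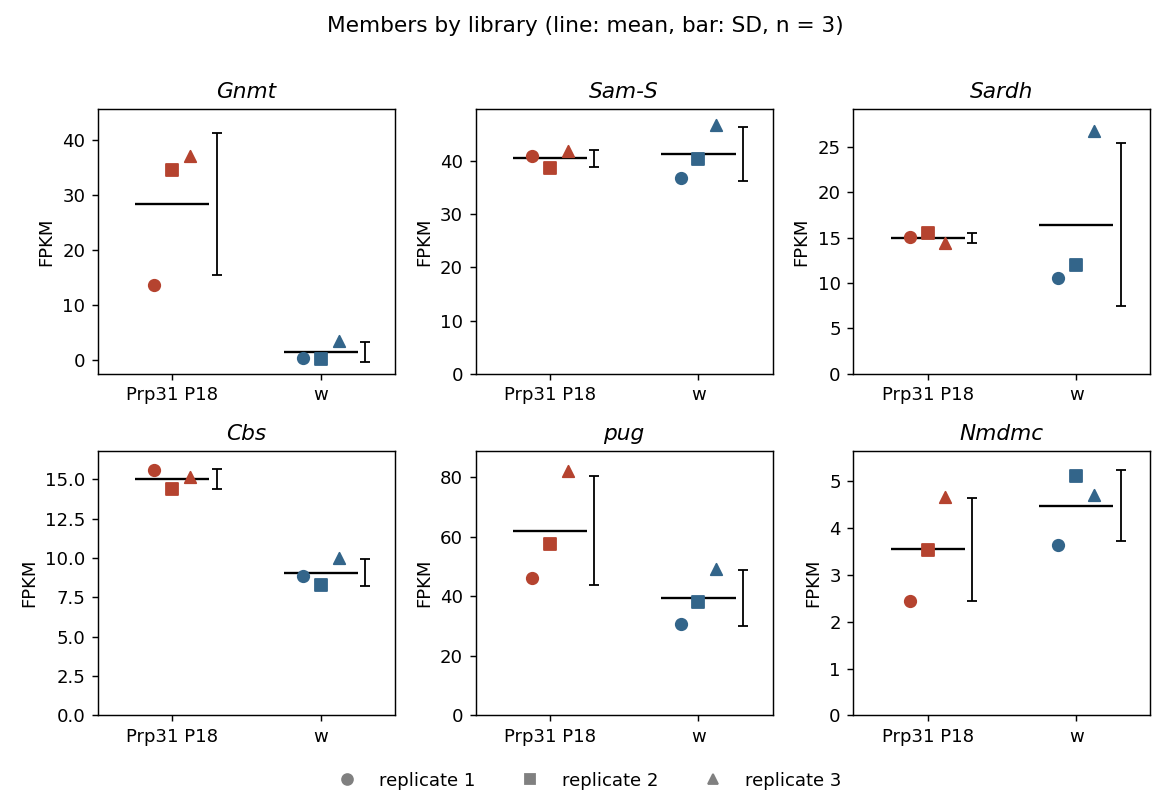
FPKM of the 6 members in each library, with mutant (Prp31 P18) libraries to the left of control (w) libraries. Marker shapes give the replicate number, lines the mean and bars the SD of 3 libraries. The Gnmt panel has 13.6 to 37.0 FPKM in mutants and 0.261 to 3.495 FPKM in controls, whereas in the Sam-S panel the groups overlap.

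The enzyme upstream, which makes the SAM, had overlapping levels in the genotypes. Sam-S (2L, 106903 to 114432, plus strand) had 40.9, 38.7 and 41.9 FPKM in mutant libraries, against 36.7, 40.3 and 46.9 FPKM in control libraries. The groups overlapped, and the log2 fold change was -0.02 (SE 0.10). Sam-S spread little within a genotype, with a highest to lowest ratio of 1.08 in mutants and 1.28 in controls. The ratio of the Gnmt level to the Sam-S level within a library was 0.332, 0.893 and 0.883 in mutant libraries and 0.0122, 0.00648 and 0.0746 in control libraries.

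The enzyme downstream of Gnmt differed less between genotypes than between control libraries. Sardh (2R, 17753555 to 17756422, minus strand) had 15.1, 15.5 and 14.4 FPKM in mutant libraries, against 10.6, 12.0 and 26.8 FPKM in control libraries. The mutant libraries lay within the range of the controls, above control replicates 1 and 2 and below control replicate 3. The log2 fold change was -0.01 (SE 0.30), and 0.39 with a standard error of 0.08 without control replicate 3. Control replicate 3 had 2.38 times the mean of the other controls, the 69th largest such gap on the log2 scale. Gnmt and Sardh thus shared a high value in control replicate 3 and differed in the mutants: per length, mutant libraries held 0.901, 2.22 and 2.57 times as much Gnmt as Sardh, and control libraries 0.0425, 0.0218 and 0.130 times as much.

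Cbs, which opens the path from homocysteine to cysteine, was higher in each mutant library than in any control library. It (X, 21045138 to 21049096, plus strand) had 15.6, 14.4 and 15.1 FPKM in mutant libraries, against 8.89, 8.32 and 9.99 FPKM in control libraries. The ratio of means was 1.66, and the log2 fold change was 0.68 (SE 0.08). Cbs was among the least variable members, with a coefficient of variation of 4.11% in mutants and 9.37% in controls. Control replicate 3 had only 1.16 times the mean of the other controls, and the fold change lay between 0.62 and 0.74 with any library left out.

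The folate enzymes pug and Nmdmc had fold changes of opposite sign, both with overlapping groups. The pug gene, whose mutation was first known for its effect on eye colour (3R, 10696534 to 10703316, plus strand), had 46.3, 57.6 and 82.1 FPKM in mutant libraries, against 30.6, 38.0 and 49.3 FPKM in control libraries. Its lowest mutant library fell just below its highest control library, and the log2 fold change was 0.63 (SE 0.23). CG14683 lies inside the pug span on the same strand over 2330 bases, and had 23.5 to 26.9 FPKM in mutants and 20.2 to 27.5 FPKM in controls. The assignment of reads in that stretch is not given in the sources used here, so the level of pug is uncertain.

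Nmdmc (3R, 9042508 to 9050555, minus strand) was the least abundant member of mutant heads, with 2.45, 3.53 and 4.67 FPKM in mutant libraries and 3.63, 5.11 and 4.71 FPKM in control libraries. The log2 fold change was -0.29 (SE 0.19). Rel, an immune transcription factor gene, lies wholly within the Nmdmc span on the same strand, sharing 3795 bases, and had 27.2 to 33.9 FPKM in mutants and 42.5 to 51.6 FPKM in controls. How reads in that stretch were assigned is not given in the sources used here, so the level of Nmdmc is uncertain. Mst85C overlaps Nmdmc on the opposite strand over 1911 bases. Per length, pug exceeded Nmdmc 16.3 to 18.9 times in mutant libraries and 7.44 to 10.5 times in control libraries, where both levels are uncertain.

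The order of the members by level also differed between the genotypes. In all 3 control libraries Gnmt came last of the 6. In mutant replicates 2 and 3 only pug and Sam-S lay above it, and in mutant replicate 1 also Cbs and Sardh, by small margins. The mean of Gnmt ranked 1599th among the 8465 genes in mutant heads and 8146th in control heads. Across all genes, 11.3% passed an adjusted p under 0.05 (limma, Benjamini-Hochberg), 299 (3.53%) higher and 661 (7.81%) lower in mutants. With median-ratio scaling that split was 360 and 454, and with quantile normalization 384 and 467. Of the 6 members 2, Gnmt and Cbs, were past that threshold as higher and 0 as lower, counts fixed in part by how the members were chosen. The groups did not overlap in 31.2% of all genes, with mutants above in 9.46% and below in 21.8%, and among members they did not overlap in Gnmt and Cbs, with mutants above.

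None of the 6 genes lies on 3L, the arm of Prp31. They are on 4 other arms, with Gnmt, Nmdmc and pug on 3R, the other arm of the same chromosome as Prp31. Among the other pathway genes called below, CG32068 and Prat2 lie on 3L, and Ahcy89E and AdSL on 3R. A part of linked differences between the stocks was not tested. Each of the 6 members has introns in every annotated transcript: 3 in Gnmt, 2 in Sardh and Nmdmc, 3 in Cbs, 4 to 5 in pug and 3 to 7 in Sam-S. Gnmt shares 75 bases at its end with CG43630 on the opposite strand, which stayed at or under 0.528 FPKM in every library.

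Of 40 other genes of these pathways, 5 rose and 2 fell in mutant heads (limma, adjusted p under 0.05). That is 17.5% of the list, beside 11.3% of all genes tested. The median log2 fold change was 0.09 for the list and -0.07 for all genes, and with median-ratio scaling 0.17 and 0. With the level of the yolk protein genes as a covariate, the list median was -0.09 and that of all genes -0.04. The yolk protein genes themselves had log2 fold changes of 1.48 to 2.66. This covariate is thus tied to genotype, and no result under it, here or below, can separate it from genotype. Quantile normalization gave 5 higher and 1 lower, and median-ratio scaling 3 and 1. Without control replicate 3 the counts were 17 higher and 3 lower, and of all genes tested 26.2% were then called, 9.9% higher and 16.3% lower. Without any other single library, 1 to 5 of the 40 passed, lowest without mutant replicate 2 or control replicate 1.

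**Figure D2:**
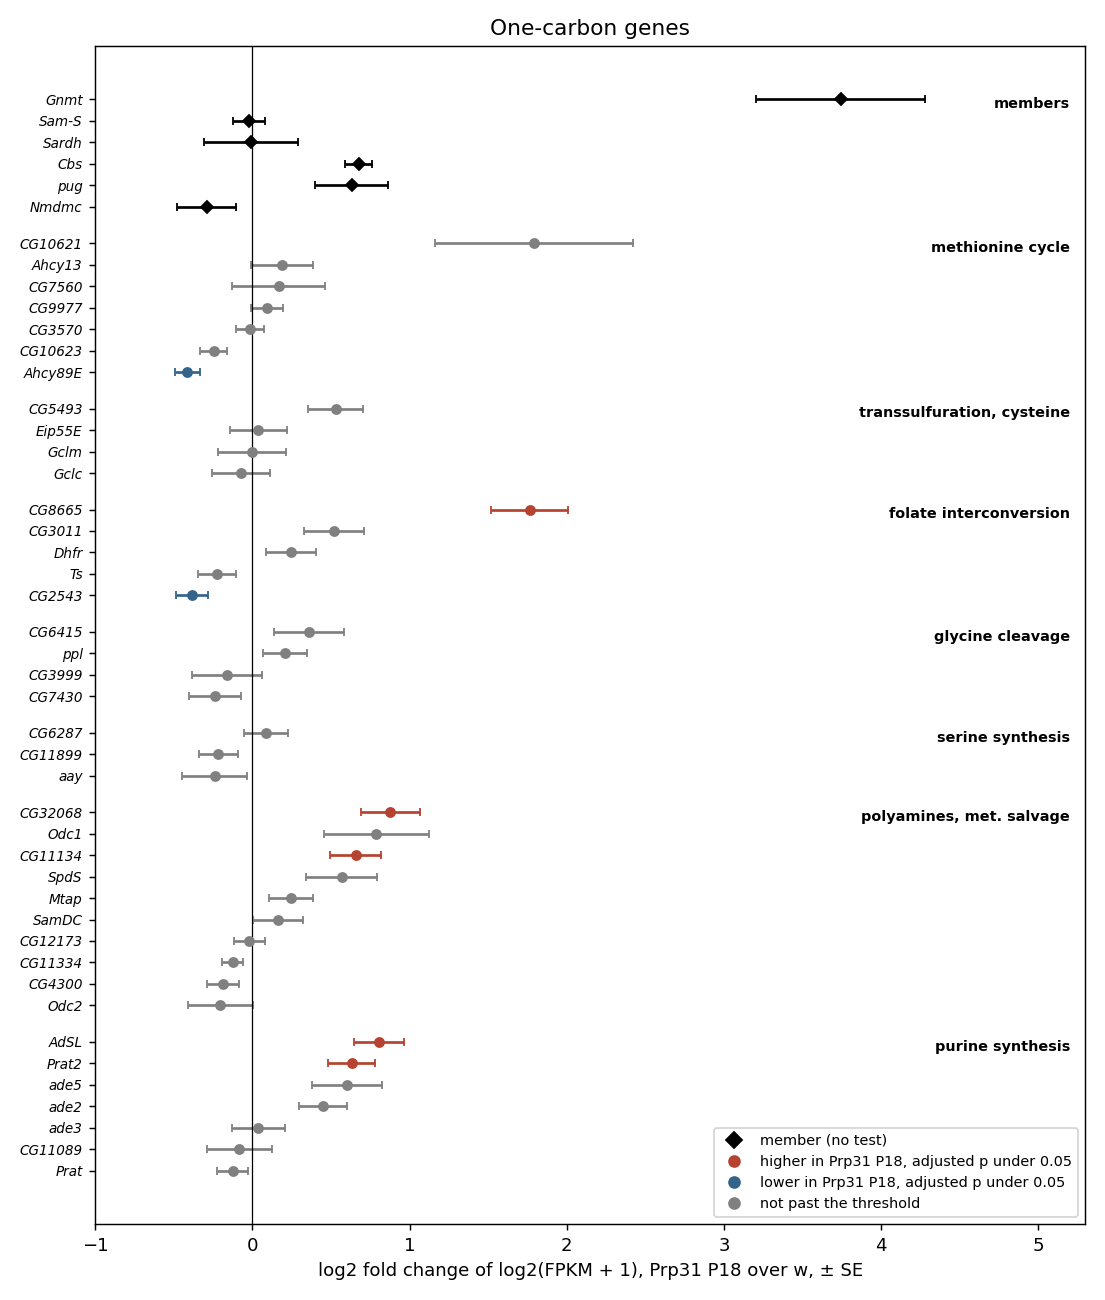
Log2 fold change of log2(FPKM + 1), mutant over control, with standard errors, for the 6 members (diamonds, no test) and 40 other genes grouped by step. Gnmt stands at 3.74, CG8665 at 1.76 and CG10621 at 1.79, the last with a wide standard error and not past the threshold.

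Among the folate enzymes 1 of 5 rose, 1 fell and 3 did not pass. CG8665, which is annotated as formyltetrahydrofolate dehydrogenase, an enzyme that releases the single carbon as carbon dioxide, had 5.47, 5.23 and 7.29 FPKM in mutant libraries, against 0.631, 0.701 and 2.07 FPKM in control libraries. The groups did not overlap, and control replicate 3 was the highest control, as for Gnmt. The log2 fold change was 1.76 (SE 0.24, limma adjusted p = 0.00455), and the call held in all 13 alternatives in which the gene was tested, with a fold change of 1.08 under the yolk protein covariate. CG2543, the folylpolyglutamate synthase that keeps folates in cells, fell to 3.08 ± 0.493 FPKM in mutants, against 4.30 ± 0.164 FPKM in controls (SD, n = 3 each; log2 fold change -0.38, limma adjusted p = 0.0498), a call lost in 11 of 13 alternatives. Without control replicate 3, 2 of the 5 were called higher and 1 lower.

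In the methionine cycle 0 of 7 rose, 1 fell and 6 did not pass, whereas without control replicate 3 limma called 3 of 7 higher and 1 lower. Ahcy89E, an adenosylhomocysteinase-like gene, had 7.08 ± 0.292 FPKM in mutants and 9.78 ± 0.749 FPKM in controls (SD, n = 3 each; log2 fold change -0.41, SE 0.08, limma adjusted p = 0.0163). Leaving out mutant replicate 1, mutant replicate 2 or control replicate 1 ended the call (0.0566 to 0.0805). Adenosylhomocysteinase itself, Ahcy13, which clears the product of methylation, had 20.2 ± 2.22 FPKM in mutants and 18.1 ± 5.87 FPKM in controls (SD, n = 3 each) and did not pass (limma adjusted p = 0.564), but was called higher without control replicate 3 (log2 fold change 0.43, limma adjusted p = 0.0204).

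The genes CG10621 and CG10623, known as homocysteine methyltransferases, which make methionine again, had fold changes of opposite sign. They were chosen for description after their values were seen. CG10621 had 34.2, 42.2 and 81.8 FPKM in mutant libraries, against 7.74, 7.19 and 41.4 FPKM in control libraries. Control replicate 3 lay within the mutant range and the other controls far below it. The log2 fold change of 1.79 did not pass (SE 0.63, limma adjusted p = 0.119). Without control replicate 3 it was 2.57 and passed (SE 0.32, limma adjusted p = 0.00173). Its neighbour CG10623 had 16.6, 19.4 and 17.0 FPKM in mutant libraries, against 22.8, 20.5 and 20.2 FPKM in control libraries, and did not pass either (log2 fold change -0.25, limma adjusted p = 0.122). The 2 genes are adjacent on 2L, and how reads were divided between similar copies is not given in the sources used here.

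Methionine salvage, which recovers methionine from the by-product of polyamine synthesis, was tested together with polyamine synthesis: 2 of 10 genes rose, 0 fell and 8 did not pass. That count was 6 of 10 without control replicate 3, and 0 of 10 without any other single library or under the yolk protein covariate. CG32068, annotated as an acireductone dioxygenase of the salvage path, had 73.7, 74.6 and 79.0 FPKM in mutant libraries, against 33.7, 35.2 and 57.1 FPKM in control libraries (log2 fold change 0.88, SE 0.19, limma adjusted p = 0.0256). CG11134, the dehydratase of the preceding part of the path, had 20.6, 19.4 and 26.9 FPKM in mutant libraries, against 12.2, 12.1 and 17.1 FPKM in control libraries (log2 fold change 0.66, SE 0.16, limma adjusted p = 0.0423). Mutant libraries lay above controls in both, and control replicate 3 was again the highest control. Leaving out any single library except control replicate 3 ended both calls (limma adjusted p 0.0574 to 0.144). The yolk protein covariate also ended both, with log2 fold changes of 0.40 for CG32068 and 0.23 for CG11134 (limma adjusted p 0.142 and 0.272). CG11134 lost its call without a filter (0.065) and with median-ratio scaling (0.0555) as well. CG11134 overlaps Grip91 on the opposite strand over 1236 bases.

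Purine synthesis draws on folate for part of its ring, and 2 of 7 of its genes rose, with 0 lower and 5 not past the threshold. Without control replicate 3, 3 of 7 were called higher, and under the yolk protein covariate 0 of 7. AdSL, adenylosuccinate lyase, had 26.8, 37.0 and 43.3 FPKM in mutant libraries, against 19.0, 19.9 and 20.0 FPKM in control libraries (log2 fold change 0.80, SE 0.16, limma adjusted p = 0.0184). Prat2, an amidotransferase of the committed step, had 75.7, 79.4 and 112 FPKM in mutant libraries, against 57.8, 54.9 and 56.2 FPKM in control libraries (log2 fold change 0.63, SE 0.15, limma adjusted p = 0.0351). In these genes control replicate 3 did not stand apart from the other controls. AdSL lost its call when mutant replicate 2, control replicate 1 or control replicate 2 was left out (0.0575 to 0.0658), and Prat2 when any of these or mutant replicate 1 was (0.0508 to 0.111). Under the yolk protein covariate both lost it, with log2 fold changes of 0.65 (SE 0.22) for AdSL and 0.46 (SE 0.19) for Prat2 (limma adjusted p 0.167 and 0.27). Prat2 lost it without a filter (0.0519) and with median-ratio scaling (0.053) as well. AdSL lies within the Pxd span on the opposite strand, sharing 2341 bases.

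The remaining lists had no call with all 6 libraries. Among all 8465 genes tested, 2314 had an unadjusted limma p under 0.05. Of 4 genes of transsulfuration and cysteine, limma called 0, with 1 past an unadjusted p of 0.05, but without control replicate 3 it called 2 of 4 higher. Gclm, the modifier subunit of the enzyme that begins glutathione synthesis, was the most abundant, at 70.5 ± 8.58 FPKM in mutants and 72.8 ± 25.0 FPKM in controls (SD, n = 3 each). Of 4 glycine cleavage genes and 3 serine synthesis genes limma called 0, also with 0 past an unadjusted p of 0.05. In level the first were CG7430, dihydrolipoyl dehydrogenase, at 165 ± 7.49 FPKM in mutants and 198 ± 42.0 FPKM in controls, and aay, phosphoserine phosphatase, at 257 ± 53.3 FPKM in mutants and 303 ± 57.9 FPKM in controls. Without control replicate 3, 1 of the 4 glycine cleavage genes was called higher and 1 lower, and 0 of the 3 serine synthesis genes. CG7430 was the lower one (log2 fold change -0.43, limma adjusted p = 0.00766). Gclm passed as lower under the yolk protein covariate (-0.59, 0.0251).

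**Figure D3:**
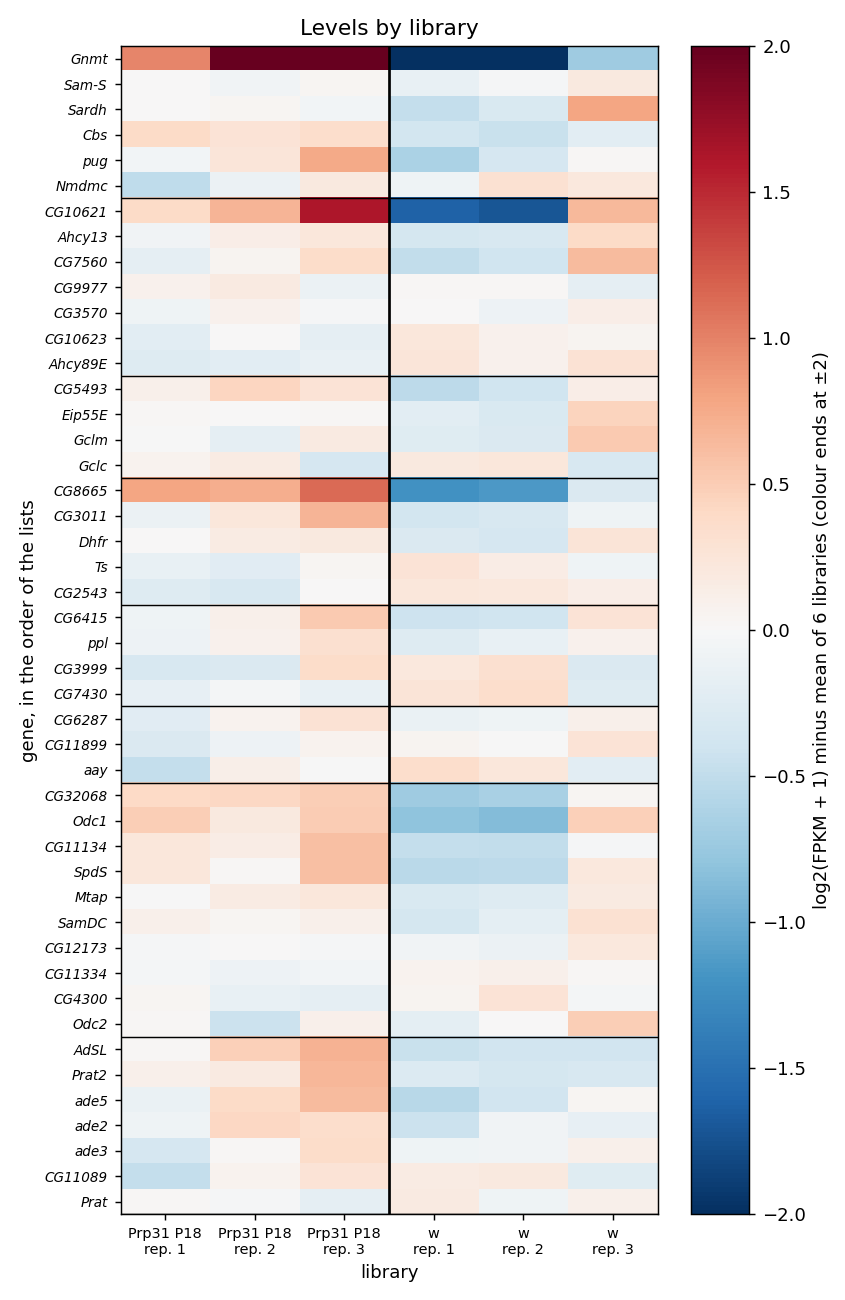
Log2(FPKM + 1) of the 6 members and 40 other pathway genes in each library, centred on the mean of the 6 libraries (red above, blue below), with mutant columns to the left of control columns. Gnmt, CG10621 and CG8665 are lowest in control replicates 1 and 2. Control replicate 3 lies above both in 26 of the 40 other pathway genes, beside 3358 of all 8465 genes tested.

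Because FoxO has been described as an inducer of Gnmt in flies, 6 genes were set beside it: foxo and 5 genes known as FoxO targets or partners in energy metabolism. Limma called 0 of the 6, with 1 past an unadjusted p of 0.05, beside 2314 of all 8465 genes tested. The most abundant, Thor, which encodes a translation inhibitor, had 203, 201 and 204 FPKM in mutant libraries, against 325, 202 and 287 FPKM in control libraries (log2 fold change -0.39, limma adjusted p = 0.202). The foxo transcript had 2.91, 3.24 and 2.85 FPKM in mutant libraries, against 3.31, 3.35 and 3.51 FPKM in control libraries (limma adjusted p = 0.297). The median log2 fold change of the 6 was -0.14, beside -0.07 for all genes. In 2 of the 6, foxo among them, the groups did not overlap, with mutants below, beside 21.8% of all genes. The part of FoxO in the level of Gnmt was not tested.

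The yolk protein genes, transcribed in the female fat body, were, like Gnmt, at their lowest in control replicates 1 and 2. Yp1 had 9449, 8015 and 19772 FPKM in mutant libraries, against 1817, 2044 and 8987 FPKM in control libraries. Yp3 had 6792, 5781 and 14725 FPKM in mutant libraries, against 606, 621 and 6084 FPKM in control libraries. Control replicate 3 thus reached the range of the mutants for these genes, which it did not for Gnmt at 3.495 FPKM. How far the transcript level of msl-2 reports sex was not tested, nor was the sex make-up of the pools. This gene, the other one with a row on the list of yolk protein and sex markers, did not share this pattern. It had 11.8, 11.9 and 9.62 FPKM in mutant libraries, against 12.7, 11.7 and 10.5 FPKM in control libraries (log2 fold change -0.06, limma adjusted p = 0.741). The sex markers roX1 and roX2 had no row. None of the 3 yolk protein genes passed the test (limma adjusted p 0.103 to 0.182). With their mean log2 level as a covariate, the log2 fold change of Gnmt was 2.47 with a standard error of 0.48, that of Cbs 0.55, and that of pug 0.09. Since that level itself differed between mutants and control replicates 1 and 2, this fit cannot separate it from genotype. In bulk heads, fewer cells of a type and less RNA per cell cannot be told apart.

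**Figure D4:**
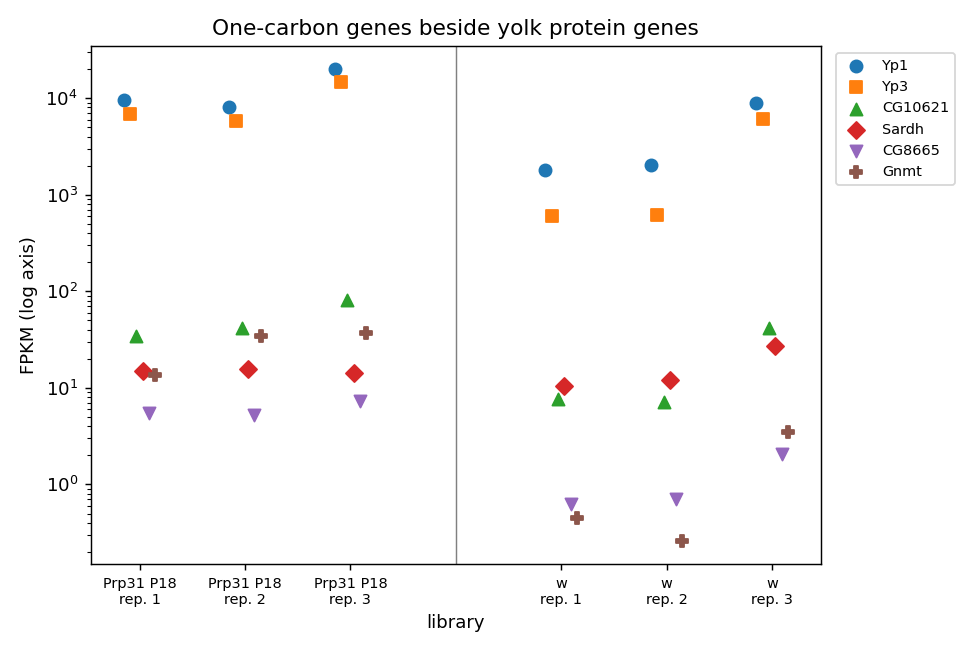
FPKM on a log axis in each library for Gnmt, Sardh, CG10621 and CG8665 beside the yolk protein genes Yp1 and Yp3, with mutant libraries to the left of control libraries. All 6 genes are higher in control replicate 3 than in control replicates 1 and 2, and Gnmt in control replicate 3 (3.495 FPKM) remains below its lowest mutant library (13.6 FPKM).

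Markers of other cell types were taken as lists. Their counts stand beside 3.53% of all genes tested called higher and 7.81% called lower. Of 9 fat body genes with a row, 7 were tested, 1 rose and 0 fell. The gene that rose, to, had 88.3, 95.5 and 64.1 FPKM in mutant libraries, against 44.9, 49.5 and 43.5 FPKM in control libraries. Its log2 fold change was 0.81 (limma adjusted p = 0.0149), and control replicate 3 was its lowest control. Control replicate 3 was above both other controls in 6 of the 9 (4 of the 7 tested), beside 3358 of all 8465 genes tested. The summed level of the 9 was 584 to 1063 FPKM in mutants and 336 to 632 FPKM in controls. Rfabg alone had 252 to 383 FPKM in mutants and 143 to 360 FPKM in controls. The larval markers Fbp1 and Fbp2 were under 1.1 FPKM in every library but control replicate 3, where they had 2.22 and 3.01 FPKM. Lsp2, a larval serum protein gene of this list, went the other way. It had 72.7, 61.3 and 451 FPKM in mutant libraries, against 3.27, 1.92 and 60.8 FPKM in control libraries (log2 fold change 3.80, SE 1.21, limma adjusted p = 0.0905). Of 6 haemocyte genes 1 rose and 1 fell, all 6 were highest among controls in control replicate 3, and the sum was 135 to 154 FPKM in mutants and 65.1 to 127 FPKM in controls. Most of that difference lay in the prophenoloxidase genes PPO1 and PPO2, which together had 81.0, 75.1 and 97.3 FPKM in mutant libraries, against 5.11, 4.51 and 52.4 FPKM in control libraries. The other 4 summed to 56.9 to 59.8 FPKM in mutants and 60.6 to 74.0 FPKM in controls. Of 4 muscle genes 0 rose and 2 fell, with a sum of 592 to 773 FPKM in mutants and 848 to 1671 FPKM in controls. Most of that sum was Mlc2, with 390 to 508 FPKM in mutants and 608 to 1206 FPKM in controls. No gene of 5 each for neurons, photoreceptors or glia was called by limma. Past an unadjusted limma p of 0.05 were 1, 0 and 1 of them, beside 2314 of all 8465 genes tested. No marker was at 0 in any library. The part of these cell types in the level of Gnmt was not tested.

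The genes with profiles closest to that of Gnmt were found by the root mean square difference over the 6 libraries, each profile being log2(FPKM + 1) minus its own mean. The nearest was CG34166, at 0.47, with 192, 224 and 365 FPKM in mutant libraries and 17.97, 19.1 and 71.5 FPKM in control libraries. It shared with Gnmt the higher value of control replicate 3. Obp57a, an odorant binding protein gene, followed at 0.50, TotX, a stress peptide gene, at 0.63, Cyp6a17, a cytochrome P450 gene, at 0.65, and the attacin gene AttA at 0.66. Reads of Cyp6a17 and AttA may be shared with their close copies Cyp6a23 and AttB, so both levels are uncertain. Cyp6a17 had 1.63, 1.63 and 1.78 FPKM in control libraries, so its control replicate 3 did not stand apart. Closest to Sardh were Desat1, a fatty acid desaturase gene, at 0.11, with 218, 233 and 193 FPKM in mutant libraries and 168, 180 and 327 FPKM in control libraries, and the uncharacterised genes CG15362 and CG32726, both at 0.12. These distances describe 6 libraries in 2 groups and carry no test.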

How the data were processed

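The authors deposited a matrix of FPKM with a column for each library. Build BDGP6 and the tools STAR 2.5.2b and CASAVA 1.8 are named in the submitters' processing notes. How FPKM were computed, on which annotation, with what use of strand and after which filter is not given in the sources used here. Since values are relative to each library's total, a few very abundant transcripts can lower all others. Because FPKM are not counts, log2(FPKM + 1) of the 8465 genes averaging 1 FPKM or more was fitted in limma 3.58.1 (R 4.3.3), with the prior variance following the mean level, Benjamini-Hochberg adjustment over all of them and a threshold of 0.05. Values were also simulated for these 8465 genes with independent noise and 200 changed genes per run. On them, it recovered 44.7% of changes of 0.5, 89.3% of changes of 1, 96.7% of changes of 2 and 100% of changes of 4 in log2. The noise of each gene was its residual SD in the real fit, taken as exact. False calls among the unchanged genes are not given here. Differences shared by many genes, such as those of control replicate 3, were not simulated, so recovery in the real libraries may differ.

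The members, lists and alternatives were chosen with earlier results of these data known. Named genes were the members and up to 4 called genes per list or else the most abundant. Also named were the 5 nearest to Gnmt, the 3 nearest to Sardh, the yolk protein and sex markers, and overlapping genes. CG10621, CG10623, Ahcy13, foxo, Fbp1, Fbp2, Lsp2, Rfabg, to, PPO1, PPO2 and Mlc2 were added after their values were seen. List symbols were matched by table symbol, then by annotation symbol or synonym. Positions are those of an annotation of the same assembly name, counted from 1. Promoter and protein sequences were not analysed here.

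Alternatives were quantile normalization, median-ratio scaling, pseudocounts of 0.5 and 0.1, a minimum mean of 5 FPKM or none, the replicate number as a block, the mean log2 level of Yp1, Yp2 and Yp3 as a covariate, and each library left out.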

Additional observations from a re-analysis of the deposited data

How the results depend on the processing

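The log2 fold changes of the members stayed within 1 SD between replicates in 77 of the 83 refitted values. The exceptions were Gnmt with a pseudocount of 0.1 (4.86), and under the yolk protein covariate Gnmt (2.47), Sam-S (-0.23), Sardh (-0.72), Cbs (0.55) and pug (0.09); the cause was not tested. The 7 called pathway genes became 4 without a filter, 4 with median-ratio scaling, 4 under the yolk protein covariate (1 higher and 3 lower, against 5 and 2) and 12 with the replicate number as a block (1 higher in the methionine cycle and 1 in glycine cleavage, where 0 were before). With a library left out they numbered 1 to 20, the highest without control replicate 3. All called genes, 960, became 629 with a filter of 5 FPKM, where fewer genes were tested, 491 under the covariate, and 412 to 2221 with a library left out. Leaving out mutant replicate 1 gave 532, mutant replicate 3 517, control replicate 1 412, control replicate 2 498 and control replicate 3 2221. FoxO-related calls were 0 in every alternative.

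Signs turned in genes that were not called: Gclm (-0.001) with median-ratio scaling (0.074), quantile normalization (0.02), and between -0.143 and 0.262 with a library left out (0.085 without mutant replicate 2), and CG7430 (0.126) and aay (0.035) under the covariate. Samples of the same replicate number deviated together with correlations of -0.011, 0.21 and 0.318, so the numbers were not used as pairs. Under that block 1142 genes were called in all, and not every library correlated best with its own number. Depth per gene is not given by FPKM, so low levels such as those of Gnmt in controls carry a counting error that was not computed.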

Other observations

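Among the 3 mutant libraries, many genes of these pathways were lowest in mutant replicate 1 and highest in mutant replicate 3. This held for 3 of the 6 members (Gnmt, pug and Nmdmc), for 18 of the 40 other pathway genes, among them 5 of 7 purine synthesis genes and 0 of 4 genes of transsulfuration and cysteine, and for 1007 of the 8465 genes tested, 11.9%. The pattern was noticed in the data and carries no test.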
